A study of Mus musculus with 17 samples.

Results

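Collagens are the triple-helical proteins of the extracellular matrix. All protein-coding genes whose symbol is Col, a number, a and a number were taken, and 44 were found in both count tables, of 38293 gene IDs in the table of gland and uncloned organoids and 55487 in the table of clones. They divide into 11 fibrillar chains, 6 basement membrane (type IV) chains, 3 chains of the basement membrane zone, 9 FACIT chains (fibril-associated collagens with interrupted triple helices), 4 transmembrane chains, 6 beaded filament (type VI) chains, 3 short-chain network chains and 2 others. The choice rests on the symbol and not on measured values.

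Polyadenylated RNA was measured in mouse lacrimal gland, which makes the watery part of tears, and in organoids, the epithelial cultures that grow from it. The 17 libraries form 7 groups. There are 3 libraries each of wildtype gland tissue, of uncloned wildtype organoids kept 7 days in expansion medium (EM), and of uncloned wildtype organoids moved after 2 days in EM to differentiation medium (DM) for 5 days. Their titles carry LG6, LG7 or LG8, and these numbers are called lines 6, 7 and 8 here. There are 2 libraries each of wildtype (WT) clones in EM and in DM and of Pax6-KO clones in EM and in DM, numbered 1 and 2. For the clones the growth protocol gives the same days, while the series text gives 7 days in each medium, so their time in DM is uncertain. Each clone is 1 clonal line, so a difference between the genotypes rests on 2 lines against 2. Pax6 encodes a transcription factor of eye and lacrimal gland development. Its count does not check the labels, because KO-labelled libraries held 172 and 272 CPM (counts scaled to a common library size) in EM and 135 and 309 in DM, overlapping the WT clones at 245 and 276 in EM and 219 and 279.7 in DM. These clones are therefore called KO-labelled throughout.

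A collagen molecule is made of chains that are folded, hydroxylated and assembled inside the cell before export. Fibrillar collagens form the tough fibrils of connective tissue and FACIT collagens decorate those fibrils. Type IV chains build the sheet-like network of basement membranes under epithelia, and type VII anchors that sheet to the tissue beneath. Type XVII is a transmembrane protein of hemidesmosomes, which fix basal epithelial cells to the basement membrane. In a gland, fibroblasts make most fibrillar collagen, while epithelial cells make a part of the basement membrane. The organoids were grown in basement membrane extract, which brings matrix protein, while the counts measure RNA.

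The 6 type IV genes lie in head-to-head pairs on GRCm38: their starts face each other, so that one stretch of DNA lies between 2 chains. The GENCODE M21 starts of Col4a3 (alpha 3 chain, plus strand of chromosome 1) and Col4a4 (alpha 4 chain, minus strand) have 71 bases between them, and those of Col4a5 and Col4a6 on the X chromosome have 1308. The starts of Col4a1 and Col4a2 overlap by 22 bases on opposite strands. The Col4a3 and Col4a4 stretch is shown because both genes were higher in DM, and the stretches before the Col4a5 and Col4a6 starts because that pair was not called between the media in uncloned organoids. The stretches before the starts of Col7a1, Col8a1 and Col17a1, genes on which the comparisons of medium or tissue turn, are added. All are from RefSeq on GRCm38.p6, 5′ to 3′, and capitals mark matches to any of 5 motifs on either strand: the GC box, read as GGGCGG, the CCAAT box, spelled as its name, the classical core promoter box, read as TATAAA, the site of AP-1 factors, read as TGACTCA, and the site of TEAD factors, read as GGAATG. The motifs do not overlap in the stretches shown.
Col4a3 to Col4a4, chr1:82586850-82586920, plus strand: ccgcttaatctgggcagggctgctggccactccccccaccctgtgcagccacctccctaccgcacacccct
Col4a5, chrX:141475169-141475384, plus strand: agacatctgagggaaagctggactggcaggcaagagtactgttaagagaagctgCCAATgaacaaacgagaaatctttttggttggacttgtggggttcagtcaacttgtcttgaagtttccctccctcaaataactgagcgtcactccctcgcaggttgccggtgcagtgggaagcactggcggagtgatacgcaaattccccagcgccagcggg
Col4a6, chrX:141474077-141474326, minus strand: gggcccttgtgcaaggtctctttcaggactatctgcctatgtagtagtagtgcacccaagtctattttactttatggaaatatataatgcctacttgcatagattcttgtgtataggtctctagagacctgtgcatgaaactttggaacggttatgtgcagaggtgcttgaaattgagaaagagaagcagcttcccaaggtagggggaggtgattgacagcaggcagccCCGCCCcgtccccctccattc
Col7a1, chr9:108953336-108953585, plus strand: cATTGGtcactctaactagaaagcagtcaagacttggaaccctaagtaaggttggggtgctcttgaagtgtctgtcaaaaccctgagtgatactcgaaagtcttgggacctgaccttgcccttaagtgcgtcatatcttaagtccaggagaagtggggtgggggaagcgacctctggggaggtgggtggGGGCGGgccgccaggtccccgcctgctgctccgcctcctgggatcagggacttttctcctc
Col8a1, chr16:57754738-57754987, minus strand: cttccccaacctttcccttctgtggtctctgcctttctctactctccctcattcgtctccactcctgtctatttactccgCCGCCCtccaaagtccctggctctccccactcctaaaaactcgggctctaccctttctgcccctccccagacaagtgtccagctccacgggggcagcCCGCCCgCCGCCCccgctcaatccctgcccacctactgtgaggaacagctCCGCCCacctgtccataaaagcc
Col17a1, chr19:47692095-47692292, minus strand: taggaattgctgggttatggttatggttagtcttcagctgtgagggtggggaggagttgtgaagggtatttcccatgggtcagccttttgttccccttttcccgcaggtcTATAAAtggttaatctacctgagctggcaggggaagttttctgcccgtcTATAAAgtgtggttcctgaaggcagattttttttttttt
The 71 bases between Col4a3 and Col4a4 hold none of these motifs. The Col8a1 stretch holds 4 GC boxes, that of Col17a1 holds 2 core promoter boxes, and that of Col7a1 holds 1 GC box and 1 CCAAT box. The Col4a6 stretch holds 1 GC box and the Col4a5 stretch 1 CCAAT box. Over the 250 bases before each RefSeq start, a GC box stood in 57.9% of 38 windows matched to collagen genes (35 of the 44 genes). Over all genes it stood in 32.7% of 32851 windows. The other motifs stood in 34.2% against 33.8% (CCAAT box), 13.2% against 12.4% (core promoter box), 2.63% against 4.46% (AP-1 site) and 10.5% against 12.6% (TEAD site). These matches describe letters only. Col12a1 is not in the promoter table used here.

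Levels are CPM, on library sizes normalised by edgeR's TMM method. The collagens took 0.0471% of all counts in the gland, 0.132% in uncloned EM and 0.192% in uncloned DM (means of 3 libraries). Between 65.5% and 67.6% of the counts of a gland library belonged to 10 genes, against 5.93% to 7.36% in the organoid libraries. With the 10 top genes of each library set aside, the shares were 0.141% in the gland, 0.140% in EM and 0.205% in DM. A library held 12801473 to 19207469 counts among gland and uncloned samples and 18282059 to 22500534 among clones. In clones the collagens took 0.105% and 0.116% of counts in WT EM and DM, and 0.156% and 0.176% in KO-labelled EM and DM (means of 2). The 2 tables were normalised and tested apart, and levels from both are set side by side without a test.

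The kind of collagen differed far more than the amount. Fibrillar chains held 40.6% of collagen reads in the gland (37.5 to 43.0%), and between 0.248% and 0.733% in the organoid groups. Beaded filament chains held 7.21% in the gland and at most 0.763% in an organoid group. Transmembrane chains held 1.95% in the gland, 38.6% in uncloned EM, 43.6% in uncloned DM, 45.1% and 45.8% in WT clones and 62.9% and 61.2% in KO-labelled clones. Type IV chains held 10.2% in the gland, 33.7% and 25.6% in uncloned EM and DM, 14.7% and 15.8% in WT clones and 7.93% and 10.2% in KO-labelled clones.

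**Figure D1:**
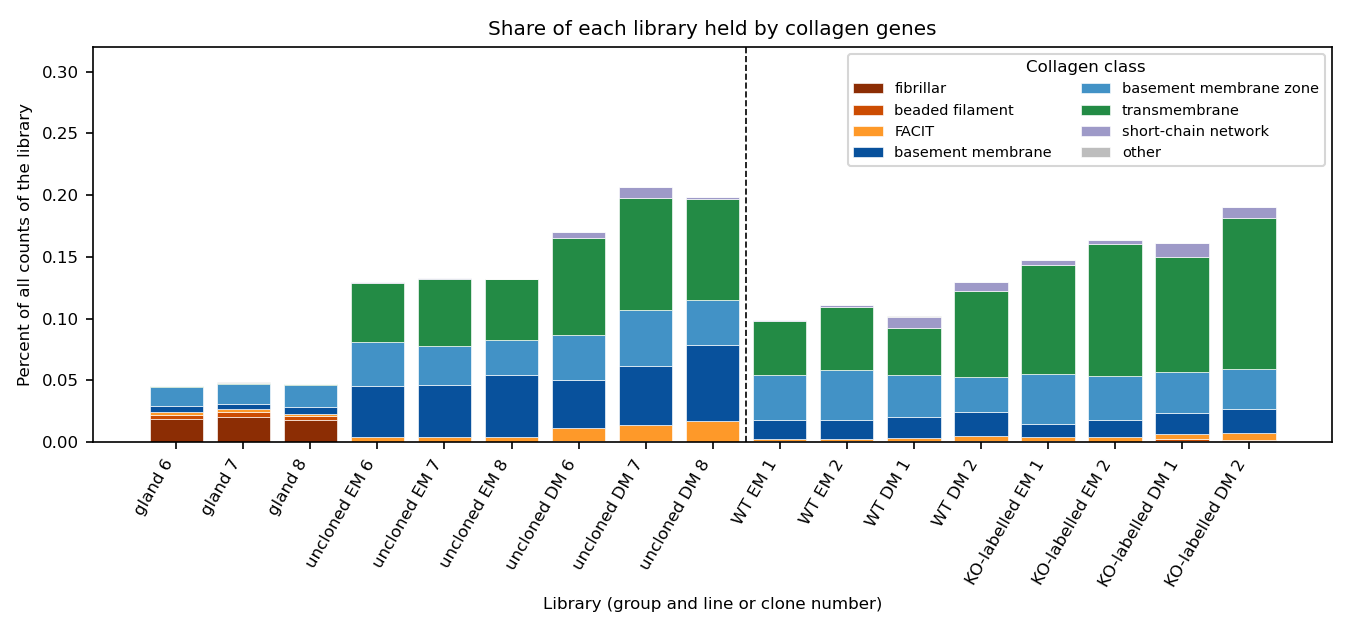
Percent of all counts of each library (y axis) held by collagen genes, stacked by class, for the 17 libraries (x axis); the dashed line parts the 2 tables. The gland bars are the lowest, at 0.0455% to 0.0483%, and the fibrillar part seen there is all but missing in the organoids, where the transmembrane part is large.

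Between genes, levels were compared as CPM per kilobase of exon. In the gland the leading collagen was Col7a1, the anchoring fibril chain, with 27.1% of the per-kilobase total, followed by the connective tissue chain Col3a1 with 18.0% and by Col1a1, Col1a2 and Col4a1 with 8.34%, 6.91% and 6.32%. In all 6 organoid groups the order was Col17a1, then Col18a1, whose C-terminal fragment is endostatin, then Col4a5. Col17a1 held between 37.6% (uncloned EM) and 66.1% (KO-labelled EM), Col18a1 between 12.7% and 33.1%, and Col4a5 between 4.55% and 11.5%. The per-kilobase level of Col17a1 was 2.83 CPM per kb in the gland, 45.3 in uncloned EM and 88.1 in uncloned DM. For Col7a1 it was 37.1, 0.408 and 9.37.

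**Figure D2:**
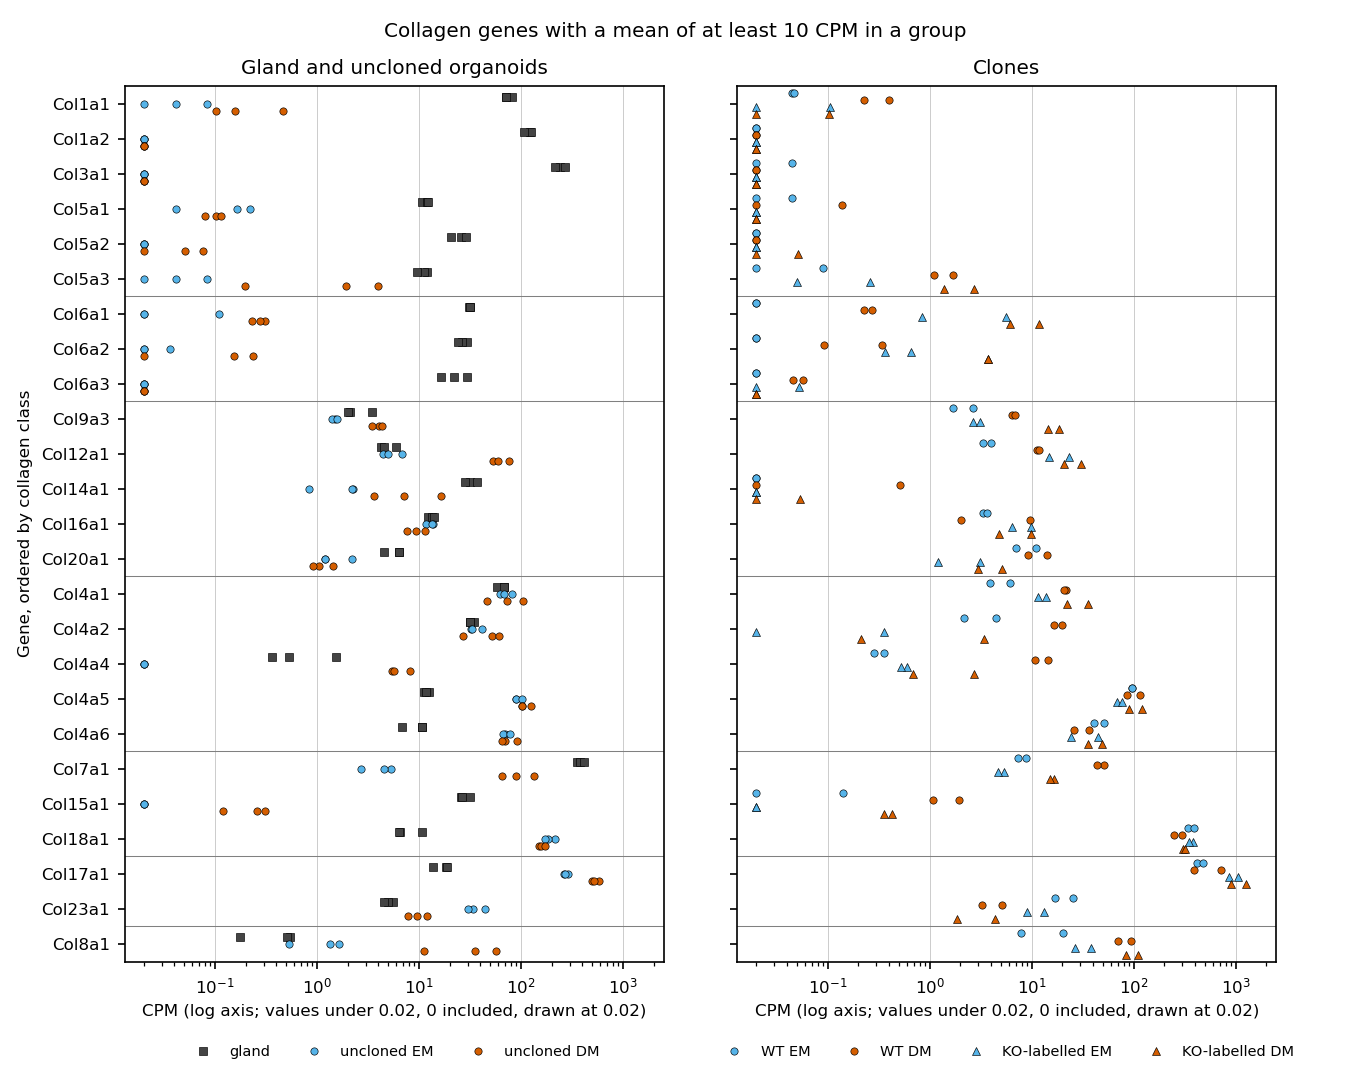
CPM (x axis, log scale) of each collagen gene with a mean of at least 10 CPM in a group, 1 point a library, ordered by class; values under 0.02 CPM are drawn at 0.02. Col1a1, Col1a2 and Col3a1 lie far apart between gland and organoids, Col6a1 and Col6a2 have their higher organoid values in KO-labelled clones, and Col17a1, Col18a1, Col4a5 and Col4a6 are higher in organoids than in the gland.

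The first question was how the organoids' collagens differ from those of the gland. Genes of types I, III, V and VI, the collagens of connective tissue, had at most 12 reads a library in uncloned organoids, apart from Col5a3 in DM. The hemidesmosome gene Col17a1, Col18a1 and the epithelial type IV chains Col4a5 and Col4a6 were higher in the organoids, from 7.73-fold (Col4a6 in EM) to 30.9-fold (Col17a1 in DM). Of the 44 genes, 30 passed the filter on low counts in this table, and 14 did not, with a highest group mean of 1.22 CPM. All p-values are from edgeR's quasi-likelihood test with Benjamini-Hochberg adjustment over all genes tested, errors of fold changes are standard errors, and a gene is called at an adjusted p under 0.05. In uncloned EM, 6 of the 30 were higher than in the gland and 18 lower, where 37.4% of all 13713 genes were called higher and 37.4% lower. In uncloned DM 10 were higher and 16 lower, against 38.1% and 37.4% of all genes. Scaled to total counts instead, 13 were higher and 16 lower in EM (83.8% and 9.49% of all genes), and 15 higher and 10 lower in DM (84% and 9.26%). The median log2 fold change of the 30 was -5.08 in EM and -1.15 in DM, beside 0.01 and 0.02 over all genes. Both comparisons use the same 3 gland libraries. Of the 8 fibrillar chains tested, 7 were lower and Col11a2 was higher in EM, and 7 were lower in DM. The 4 type VI chains tested were lower in both media. In bulk RNA, fewer cells of a type and less RNA per cell cannot be told apart.

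Col1a1 and Col1a2, the chains of type I collagen, and Col3a1, which forms type III, led the fibrillar genes of the gland per kilobase. Col3a1 (ENSMUSG00000026043, chr1:45311538-45349706, plus strand) had 241, 269 and 216 CPM in the gland libraries 6, 7 and 8, and 0 reads in all 6 uncloned organoid libraries (at least 6018-fold lower, adjusted p = 5.12e-09 in EM; at least 5632-fold lower, adjusted p = 4.90e-09 in DM). A bound of this kind sets 3 reads over the group at 0. Col1a2 had 122, 125 and 106 CPM in the gland and 0 reads in every organoid library, clones included (at least 2931-fold lower, adjusted p = 6.36e-09 in EM; at least 2744-fold lower, adjusted p = 6.11e-09 in DM). Col1a1 had 71.9, 82.0 and 71.4 CPM in the gland, 2, 0 and 1 reads in EM and 2, 12 and 4 reads in DM, which is a log2 fold change of -8.17 ± 0.28 in DM (adjusted p = 5.95e-10). Every uncloned library lay far below every gland library in these 3 genes. The gland ratio of Col1a1 to Col1a2 per kilobase was 1.12 to 1.27.

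The type V chains, which start and narrow type I fibrils, followed. Col5a1 had 10.7, 12 and 12.2 CPM in the gland and 0.0415, 0.219 and 0.166 in EM (log2 fold change -6.26 ± 0.36, adjusted p = 3.44e-08) and 0.103, 0.115 and 0.0792 in DM (-6.78 ± 0.38, adjusted p = 2.71e-08). Col5a2 had 25.7, 29.0 and 20.8 CPM in the gland, 0 reads in EM (at least 621-fold lower, adjusted p = 3.73e-08) and 1, 2 and 0 reads in DM (582-fold lower, 95% interval 198 to 2831, adjusted p = 4.58e-08). Col5a3 had 11.9, 11.1 and 9.51 CPM in the gland, 2, 0 and 1 reads in EM (269-fold lower, 95% interval 90.9 to 1317, adjusted p = 2.68e-05) and 1.95, 3.92 and 0.198 CPM in DM (-2.41 ± 0.63, adjusted p = 0.00480). Every gland library stood above every uncloned organoid library in the 3 type V genes. Col27a1, a fibrillar chain of cartilage, had 2.49, 5.29 and 2.19 CPM in the gland, 0, 0 and 3 reads in EM (80.0-fold lower, 95% interval 26.1 to 399, adjusted p = 8.23e-05) and 9, 19 and 2 reads in DM (-2.93 ± 0.67, adjusted p = 0.00193). Col11a2 went the other way at a low level, with 0, 0.365 and 1.29 CPM in the gland, 1.58, 2.12 and 1.86 in EM (log2 fold change 1.58 ± 0.58, adjusted p = 0.0270) and 1.03, 0.846 and 1.03 in DM (0.64 ± 0.61, adjusted p = 0.358). Its call in EM is lost without gland 6, gland 7 or EM 7 (adjusted p up to 0.0891).

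Type VI collagen forms beaded filaments between fibrils and cells. Col6a1 had 32.0, 31.2 and 31.9 CPM in the gland, 0, 3 and 0 reads in EM (799-fold lower, 95% interval 272 to 3885, adjusted p = 2.17e-09) and 6, 6 and 7 reads in DM (log2 fold change -6.84 ± 0.30, adjusted p = 4.05e-09). Col6a2 had 29.7, 26.6 and 24.3 CPM in the gland, 0, 1 and 0 reads in EM (2008-fold lower, 95% interval 359 to 79488, adjusted p = 1.02e-08) and 0, 4 and 6 reads in DM (log2 fold change -7.51 ± 0.40, adjusted p = 1.70e-08). Col6a3, the third chain of the classical molecule, had 21.8, 29.5 and 16.5 CPM in the gland and 0 reads in uncloned organoids (at least 551-fold lower, adjusted p = 1.21e-06 in EM; at least 516-fold lower, adjusted p = 1.21e-06 in DM). The type VI genes had some reads of the first pair of chains in DM and none of the third. Col6a6 had 5.50, 5.29 and 3.09 CPM in the gland, 0, 1 and 0 reads in EM (336-fold lower, 95% interval 58.7 to 13431, adjusted p = 6.58e-07) and 0, 1 and 0 in DM (315-fold lower, 95% interval 54.9 to 12571, adjusted p = 7.00e-07). The gland and uncloned organoid libraries do not overlap in any of the 4.

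Among marker genes of other cell types, none of them a collagen, 12 of the 13 fibroblast markers tested were lower in EM than in the gland, 8 of 9 macrophage and dendritic cell markers and 9 of 10 endothelial and pericyte markers. In each of these lists 1 marker was higher. Of 4 Schwann cell and nerve markers tested, 2 were higher and 1 lower. Over all genes, 37.4% were called higher and 37.4% lower in EM, and no marker list was tested against these shares. All 14 fibroblast markers had reads in the gland, where they summed to 763 to 919 CPM a library. In uncloned EM 5 of 14 had reads (255 to 275 CPM) and in uncloned DM 8 of 14 (174 to 268 CPM), and Pdgfrb, Lum, Dpt, Mfap5, Pi16 and Fmod had 0 reads in both. Of the remaining sum, 137 CPM in EM belonged to Fbln1, while Dcn stood at 245 ± 27.3 CPM in the gland and at 0.110 in EM. Macrophage and dendritic cell markers summed to 520.3 to 699 CPM in the gland, 15.2 to 25.0 in EM and 20.5 to 28.4 in DM. Endothelial and pericyte markers summed to 83.5 to 96.7, 93.9 to 115 and 103 to 132 CPM, with 12 of 12, 7 of 12 and 7 of 12 having reads. Of that sum, Notch3 held 101 CPM in EM against 7.23 in the gland. Schwann cell and nerve markers summed to 50.4 to 61.8 CPM in the gland, 111 to 138 in EM and 98.0 to 121 in DM, with Mbp at 27.3 CPM in the gland and 122 in EM. Epithelial markers summed to 1186 to 1205 CPM in the gland, 5867 to 6629.8 in EM and 8115 to 10014 in DM. Acinar markers, which define the secretory cells of the gland, summed to 108796 to 114087 CPM in the gland and to 2.46 to 31.6 in organoid libraries. The part of these cell types in the results was not tested.

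The FACIT chains split. Col14a1, which binds type I fibrils, had 32.0, 37.4 and 28.3 CPM in the gland, 0.830, 2.27 and 2.19 in EM (log2 fold change -4.19 ± 0.51, adjusted p = 1.79e-05) and 3.59, 7.15 and 16.4 in DM (-1.83 ± 0.45, adjusted p = 0.00299). Col20a1 had 6.39, 4.56 and 6.43 CPM, 1.20, 2.23 and 1.20 (-1.90 ± 0.32, adjusted p = 2.02e-04) and 1.44, 1.04 and 0.911 (-2.37 ± 0.33, adjusted p = 4.54e-05). Both were lower in every uncloned organoid library. In clones Col14a1 had 0 reads in EM and at most 9 in a DM library. Col12a1, a FACIT of tissues under tension, had 4.26, 6.02 and 4.5 CPM in the gland and 6.85, 4.42 and 4.93 in EM, which did not pass the test (0.14 ± 0.24, adjusted p = 0.616), and 53.4, 59.6 and 76.5 in DM (12.9-fold; log2 fold change 3.69 ± 0.22, adjusted p = 4.19e-08). Col9a3, a chain of type IX, had 2.13, 2.01 and 3.47 CPM in the gland, 1.49, 1.39 and 1.57 in EM (-0.80 ± 0.27, adjusted p = 0.020) and 4.1, 4.31 and 3.45 in DM (0.61 ± 0.26, adjusted p = 0.0518). Col16a1 had 12.3, 13.5 and 13.9 CPM in the gland, 13.7, 11.8 and 13.5 in EM (-0.02 ± 0.16, adjusted p = 0.903) and 7.69, 9.27 and 11.5 in DM (-0.47 ± 0.17, adjusted p = 0.0214). The lower call of Col9a3 in EM is lost without gland 8 or EM 7 (adjusted p up to 0.203), and that of Col16a1 in DM without gland 7, gland 8, DM 6 or DM 7 (up to 0.0923). With libraries scaled to total counts the log2 fold change turned to 0.15 for Col20a1, 1.24 for Col9a3 and 2.03 for Col16a1 in EM, and to 0.15 for Col14a1 and 1.5 for Col16a1 in DM.

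At the basement membrane zone, Col7a1 (ENSMUSG00000025650, chr9:108953586-108984875, plus strand) had 352, 378 and 416 CPM in the gland, 2.70, 5.37 and 4.51 in EM (log2 fold change -6.50 ± 0.31, adjusted p = 7.64e-09) and 89.0, 134 and 65.8 in DM (-1.99 ± 0.24, adjusted p = 1.70e-05). Its mean went from 4.19 ± 1.37 (SD, n = 3) in EM to 96.3 ± 34.8, against 382 ± 32.0 in the gland. Col15a1, a proteoglycan collagen of vessel and muscle basement membranes, had 32.0, 25.7 and 26.2 CPM in the gland, 0 reads in EM (at least 700.2-fold lower, adjusted p = 1.31e-08) and 5, 8 and 3 reads in DM (log2 fold change -6.91 ± 0.29, adjusted p = 2.64e-08). Col18a1 had 6.57, 10.8 and 6.30 CPM in the gland, 217, 182 and 172 in EM (log2 fold change 4.62 ± 0.18, adjusted p = 1.33e-09) and 151, 158 and 170.4 in DM (4.37 ± 0.18, adjusted p = 1.83e-09). Col18a1 was higher in every uncloned organoid library, and the other 2 genes of the class lower. With libraries scaled to total counts, the DM calls of Col7a1, Col5a3, Col14a1, Col20a1 and Col27a1 were lost, and the median of all genes moved by 2.06 (EM) and 1.99 (DM) on the log2 scale.

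The type IV chains also split. Col4a1 and Col4a2, which together make the network of nearly all basement membranes, did not pass the test. Col4a1 had 67.6, 57.6 and 68.4 CPM in the gland, 61.7, 68.1 and 81.0 in EM (0.12 ± 0.23, adjusted p = 0.652) and 46.4, 73.7 and 104 in DM (0.21 ± 0.23, adjusted p = 0.426). Col4a2 had 34.8, 31.4 and 31.8 CPM, 32.5, 32.9 and 41.9 (0.13 ± 0.25, adjusted p = 0.641) and 27.1, 52.6 and 61.4 (0.53 ± 0.25, adjusted p = 0.0707). Col4a5 and Col4a6, chains of epithelial basement membranes, were higher in every uncloned organoid library. Col4a5 had 12.6, 11.3 and 11.7 CPM in the gland, 89.0, 88.4 and 101 in EM (7.83-fold; log2 fold change 2.97 ± 0.12, adjusted p = 2.08e-09) and 101, 103 and 125 in DM (9.27-fold; 3.21 ± 0.12, adjusted p = 1.01e-09). Col4a6 had 10.7, 10.8 and 6.81 CPM, 69.2, 67.2 and 78.0 (2.95 ± 0.19, adjusted p = 7.81e-08) and 70.4, 64.7 and 92.3 (3.04 ± 0.19, adjusted p = 5.77e-08). The alpha 3 and alpha 4 chains, known from kidney and lung basement membranes, were lower in EM and higher in DM. With gland and EM libraries alone neither passed the low-count filter, so their EM tests depend on the DM libraries being in the fit. Col4a3 had 2.66, 2.19 and 1.54 CPM in the gland, 2, 0 and 0 reads in EM (78.0-fold lower, 95% interval 20.2 to 667, adjusted p = 9.03e-06) and 4.87, 6.27 and 3.72 CPM in DM (1.24 ± 0.37, adjusted p = 0.0102). Col4a4 had 0.533, 0.365 and 1.54 CPM in the gland, 0 reads in EM (at least 22.7-fold lower, adjusted p = 2.5e-04) and 5.48, 8.15 and 5.70 CPM in DM (2.87 ± 0.43, adjusted p = 2.20e-04). The higher DM call of Col4a3 is lost without gland 8 (adjusted p = 0.0539).

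The transmembrane and short-chain genes stood low in the gland. Col17a1 (ENSMUSG00000025064, chr19:47646344-47692094, minus strand) had 13.8, 18.2 and 19.0 CPM in the gland, 262, 287 and 268 in EM and 499.7, 575 and 515 in DM (30.9-fold over the gland; log2 fold change 4.95 ± 0.13, adjusted p = 1.01e-10). Col23a1, another membrane collagen of epithelia, had 5.50, 4.92 and 4.5 CPM, 34.2, 44.3 and 30.5 in EM (2.88 ± 0.22, adjusted p = 2.96e-07) and 12.1, 7.88 and 9.51 in DM (0.98 ± 0.22, adjusted p = 0.00193). Both were higher in all uncloned organoid libraries. Col25a1, best known from neurons and muscle, had 0, 0 and 1 reads in the gland and 0.615, 0.654 and 0.594 CPM in DM (11.7-fold higher, 95% interval 2.00 to 474, adjusted p = 0.00391). Col13a1 had 1.42, 1.09 and 1.16 CPM in the gland and 0 reads in every organoid library, and did not pass the filter. Col8a1, a network collagen of vessel and cornea, had 0.178, 0.547 and 0.514 CPM in the gland, 1.66, 1.35 and 0.538 in EM (1.48 ± 1.21, adjusted p = 0.285, not called) and 35.6, 56.3 and 11.3 in DM (6.32 ± 0.82, adjusted p = 2.75e-05). Basal epithelial markers summed to 206 to 252 CPM in the gland, 3988 to 4304 in EM and 5945 to 7753 in DM. Their part in the higher Col17a1, Col18a1, Col4a5 and Col4a6 levels was not tested.

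The second question was what the change of medium did. In uncloned organoids the anchoring fibril gene Col7a1, the FACIT Col12a1, the network collagen Col8a1 and the type IV pair Col4a3 and Col4a4 rose by at least 11.7-fold in DM, and Col23a1 fell. In uncloned organoids 14 of the 30 genes were higher in DM than in EM and 2 lower, where 17.2% of all genes were called higher and 13.2% lower. The median log2 fold change of the 30 was 1.18, beside 0 over all genes. The rises took in all classes tested: 3 of 8 fibrillar chains, 1 of 4 type VI chains, 3 of 5 FACIT chains, 2 of 6 type IV chains, 2 of 3 chains of the basement membrane zone, 2 of 3 transmembrane chains and Col8a1. Col7a1 rose 22.8-fold (log2 fold change 4.51 ± 0.29, adjusted p = 4.48e-06) and Col12a1 11.7-fold (3.55 ± 0.19, adjusted p = 1.63e-06). Col8a1 rose 28.8-fold (4.85 ± 0.56, adjusted p = 1.26e-04), with line 8 lowest at 11.3 CPM and line 7 highest at 56.3. The head-to-head pair rose together. Col4a3 was 188-fold higher, 95% interval 51.7 to 1559, adjusted p = 1.30e-05, and Col4a4 was at least 165-fold higher, adjusted p = 2.38e-05. No DM library overlapped an EM library in these 5 genes.

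Col17a1, already the leading collagen in EM, rose 1.94-fold (log2 fold change 0.96 ± 0.10, adjusted p = 8.11e-05), and Col9a3 rose 2.65-fold (1.41 ± 0.23, adjusted p = 0.00119). Col14a1 rose 5.14-fold (2.36 ± 0.50, adjusted p = 0.00469), from at most 2.27 CPM in EM to at least 3.59 in DM. These 3 genes had no overlap between the media. At low levels, Col5a3 (51.6-fold higher, 95% interval 17.3 to 253, adjusted p = 0.00358), Col15a1 (at least 5.70-fold higher, adjusted p = 0.00292), Col6a1 (6.77-fold higher, 95% interval 1.99 to 35.7, adjusted p = 0.0142) and Col25a1 (2.04 ± 0.47, adjusted p = 0.00737) were also higher, and none passed 3.92 CPM in a DM library. Col23a1 fell by 1.89 ± 0.18 on the log2 scale (adjusted p = 3.02e-05), from 36.3 ± 7.11 to 9.83 ± 2.13 CPM. Col4a1 (0.09 ± 0.22, adjusted p = 0.802), Col4a2 (0.40 ± 0.23, adjusted p = 0.224), Col4a5 (0.24 ± 0.10, adjusted p = 0.0814), Col4a6 (0.09 ± 0.15, adjusted p = 0.709) and Col18a1 (-0.25 ± 0.13, adjusted p = 0.180) were not called. Col1a1 was called higher (6.41-fold higher, 95% interval 1.87 to 34.0, adjusted p = 0.0309) only with EM 7, EM 8 and DM 7 all kept (adjusted p up to 0.195), and Col27a1 (10.7-fold higher, 95% interval 3.32 to 54.7, adjusted p = 0.0405), whose groups overlap, only with EM 6, EM 7, DM 6 and DM 7 (up to 0.168). The fall of Col16a1 (-0.45 ± 0.15, adjusted p = 0.0445) was lost without any 1 library but DM 8 (up to 0.177).

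In WT clones 9 of the 21 genes that passed the filter in the clone table rose in DM and 1 fell, where 9.61% of all 14282 genes were called higher and 6.13% lower. The median log2 fold change of the 21 was 2.06, beside -1.76e-04 over all genes. The remaining 23 collagen genes stayed under a group mean of 0.650 CPM, and 4 of them had no reads. Col7a1 went from 8.83 and 7.36 CPM in EM to 50.6 and 43.7 in DM (clones 1 and 2; 5.82-fold; log2 fold change 2.54 ± 0.17, adjusted p = 8.64e-04). Col4a4 went from 0.357 and 0.281 to 14.5 and 10.7 CPM (5.28 ± 0.68, adjusted p = 0.00506) and Col4a3 from 0.223 and 0.0938 to 4.39 and 4.67 (4.78 ± 0.62, adjusted p = 0.00509). Col8a1 went from 7.81 and 20.1 to 94.4 and 69.6 CPM (2.56 ± 0.44, adjusted p = 0.0115). All 4 were higher in both DM libraries than in either EM library, as in uncloned organoids. Col4a1, which was not called in uncloned organoids, rose from 3.93 and 6.14 to 21.5 and 20.6 CPM (2.06 ± 0.29, adjusted p = 0.00639). Col4a2 went from 2.19 and 4.45 to 19.7 and 16.5 CPM without a call (2.45 ± 1.06, adjusted p = 0.169), and was called with the clone as a block (2.5 ± 0.35, adjusted p = 0.00330). Fitted on the 4 WT libraries alone, 6 genes rose and 1 fell. The calls of Col8a1 (adjusted p = 0.0544), Col9a3 (adjusted p = 0.0690), Col5a3 (adjusted p = 0.0617) and Col15a1 (adjusted p = 0.0860) were then lost, and Col4a2 was called (2.45 ± 0.40, adjusted p = 0.0428).

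Another 5 WT changes were lost when some 1 library was left out, and the share of all genes called fell in each of these fits as well. Col12a1 rose from 3.30 and 4.03 to 11.2 and 11.8 CPM (log2 fold change 1.64 ± 0.29, adjusted p = 0.0122; lost without WT EM 1, adjusted p = 0.0781). Col9a3 rose from 2.68 and 1.69 to 6.41 and 6.83 CPM (1.60 ± 0.29, adjusted p = 0.0133; lost without WT EM 2, 0.0583). Col23a1 fell from 16.9 and 25.2 to 3.25 and 5.07 CPM (-2.34 ± 0.46, adjusted p = 0.0180; lost without WT EM 2 or WT DM 1, up to 0.0774). The direction of these 3 was that of uncloned organoids. Col5a3 went from 2 and 0 reads to 1.10 and 1.71 CPM (30.0-fold higher, 95% interval 7.90 to 254, adjusted p = 0.0254; lost without WT EM 1, WT EM 2 or WT DM 2, up to 0.0971). Col15a1 went from 0 and 3 reads to 1.92 and 1.08 CPM (22.6-fold higher, 95% interval 7.36 to 112, adjusted p = 0.0375; lost without WT EM 1, WT DM 1 or WT DM 2, up to 0.123). Col17a1 was not called: clone 1 went from 417 to 392 CPM and clone 2 from 476 to 722 (0.32 ± 0.30, adjusted p = 0.526). Col18a1 went from 344 and 394 to 295 and 250.1 CPM (-0.44 ± 0.13, adjusted p = 0.0650, not called), and Col2a1, the cartilage fibril chain, went from 3 and 6 reads to 20 and 16 and was called with the clone as a block (2.14 ± 0.59, adjusted p = 0.0385).

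In KO-labelled clones 4 of 21 rose in DM, where 4.94% of all genes were called higher and 3.41% lower. None of the 21 was called lower in the main fit, while 11 of them had an unadjusted p under 0.05 in either direction, as did 24.6% of all genes. Without the low-count filter edgeR called Col23a1 lower (-1.83 ± 0.30, adjusted p = 4.16e-08). DESeq2 called 7 higher and 1 lower, beside 7.63% and 5.62% of all genes with an adjusted p. With the clone as a block, 8 were higher and 1 lower, beside 9.25% and 7.12%, and with total-count scaling 3 and 1, beside 4.43% and 3.81%. The median log2 fold change was 1.35, beside -0.00232 over all genes. Col7a1 went from 5.35 and 4.69 to 16.7 and 15.1 CPM (3.16-fold; log2 fold change 1.66 ± 0.17, adjusted p = 0.00459; lost without KO-labelled EM 2, adjusted p = 0.0513). Col9a3 went from 2.68 and 3.13 to 14.5 and 18.3 CPM (5.64-fold; 2.5 ± 0.29, adjusted p = 0.00686; lost without either EM library, up to 0.0595). In these 2 genes both clones were higher in DM. Col4a1 went from 13.7 and 11.6 to 35.5 and 22.3 CPM (1.19 ± 0.28, adjusted p = 0.0482), and Col6a2 from 13 and 7 reads to 3.70 and 3.72 CPM (2.84 ± 0.62, adjusted p = 0.0464). Either call is lost when any 1 of the 4 libraries is left out (up to 0.240 and 0.244).

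Other members had the same direction in KO-labelled clones without a call in the main fit. Col8a1 went from 38.3 and 26.5 to 109 and 84.3 CPM (1.58 ± 0.42, adjusted p = 0.0640; with the block 1.59 ± 0.35, adjusted p = 0.0233). Col23a1 went from 9.09 and 13.2 to 1.85 and 4.41 CPM (-1.84 ± 0.46, adjusted p = 0.0567; with the block -1.90 ± 0.23, adjusted p = 0.00291). The block also gave Col4a2 (3.32 ± 0.66, adjusted p = 0.0169), Col5a3 (3.63 ± 0.83, adjusted p = 0.0282) and Col4a5 (0.51 ± 0.13, adjusted p = 0.0407). Col4a4 went from 0.606 and 0.522 to 2.72 and 0.691 CPM (1.59 ± 0.62, adjusted p = 0.174) and Col4a3 from 0.152 and 0.313 to 0.411 and 0.850 (1.42 ± 0.61, adjusted p = 0.213). Clone 2 stood higher than clone 1 in Col4a3 in DM, and lower in Col4a4. Col12a1, already at 14.7 and 23.1 CPM in EM, had 20.9 and 30.4 in DM (0.44 ± 0.27, adjusted p = 0.378). Col17a1 had 854 and 1051 CPM in EM and 908 and 1265 in DM (0.19 ± 0.30, adjusted p = 0.765), and Col18a1 had 385 and 345 and 303 and 319.8 (-0.23 ± 0.13, adjusted p = 0.341).

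**Figure D3:**
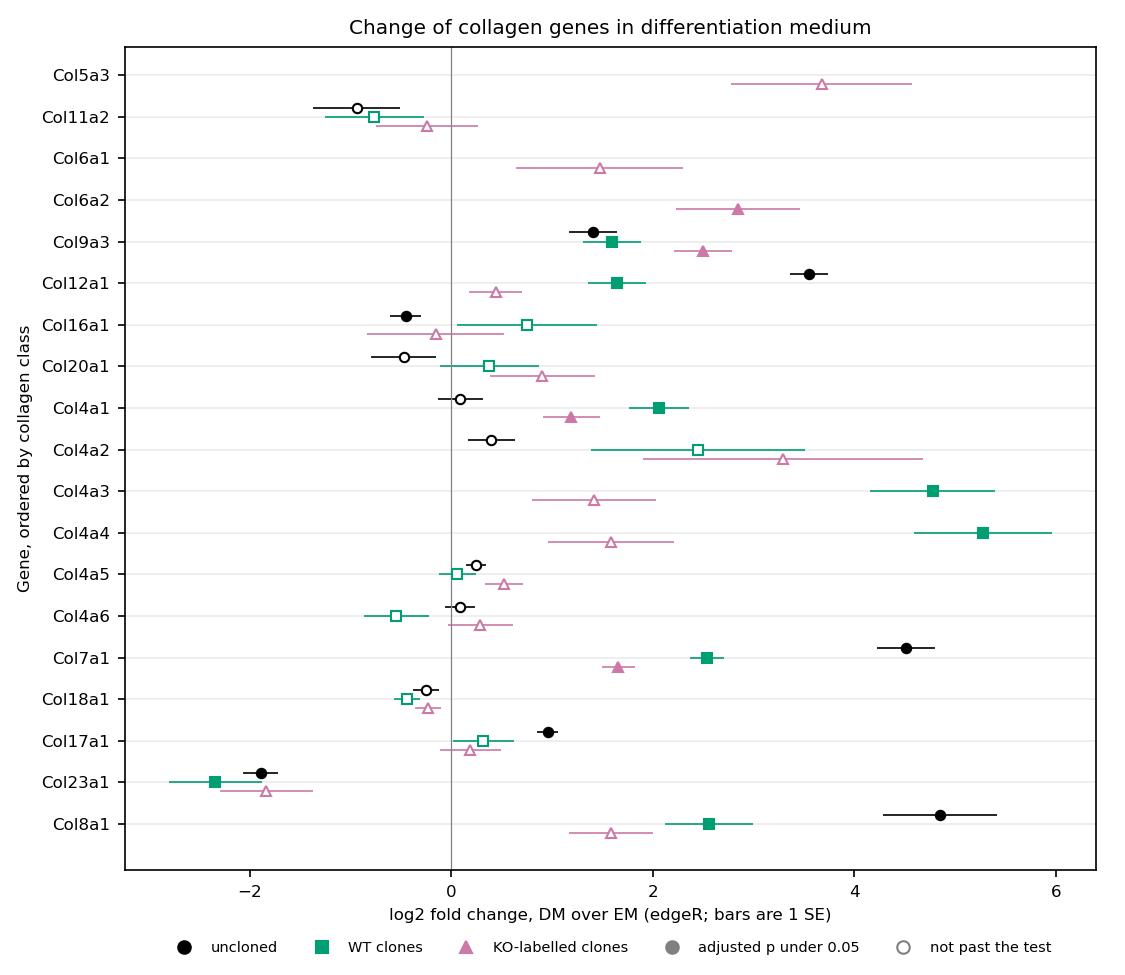
Log2 fold change of DM over EM (x axis, edgeR, bars of 1 SE) for collagen genes in uncloned organoids, WT clones and KO-labelled clones, with filled symbols at an adjusted p under 0.05. A fold change against a group with 3 or fewer reads is not drawn. Col7a1 and Col9a3 are called higher in all 3 kinds of organoid.

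Of the myoepithelial markers, genes of the contractile cells around acini, 6 of 6 tested were called higher in DM than EM in uncloned organoids, 1 of 5 in WT clones and 2 of 5 in KO-labelled clones, and none lower. Over all genes, 17.2% were called higher and 13.2% lower in uncloned organoids. These shares were 9.61% and 6.13% in WT clones and 4.94% and 3.41% in KO-labelled clones, and no marker list was tested against them. The 7 markers summed to 6.42 to 8.30 CPM in uncloned EM and 143 to 247 in uncloned DM, against 268 to 281 in the gland. In WT clones they summed to 1.65 to 2.72 CPM in EM and 11.9 to 31.9 in DM, and in KO-labelled clones to 0.657 to 1.77 and 33.6 to 41.2. All 7 had reads in each DM group. Of 7 basal epithelial markers, 4 were called higher in uncloned DM, 1 in WT DM and none in KO-labelled DM. They reached 5945 to 7753 CPM in uncloned DM from 3988 to 4304 in EM. Of 13 fibroblast markers tested in uncloned organoids, Vim (6.25 to 18.1 CPM) and Thy1 (0 to 0.501 CPM) were higher in DM and Fbln1 was lower. The other fibroblast markers were not called, and Pdgfrb, Lum, Dpt, Mfap5, Pi16 and Fmod had 0 reads in both media. Of 10 endothelial and pericyte markers, 3 were higher and 1 lower, and the pericyte marker Rgs5 went from 0.268 to 32.4 CPM. It was also called in WT clones (0.348 to 17.7 CPM). Of 9 macrophage and dendritic cell markers 4 were higher, and of 4 Schwann cell and nerve markers 1. The part of these cell types in the DM changes was not tested.

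The third question was whether collagens differ between KO-labelled and WT clones. KO-labelled clones had more Col12a1 in EM, more Col6a1 and Col6a2 and less Col7a1 in both media, and less Col4a3 and Col4a4 in DM. Most of these calls were lost when 1 library was left out, and Col12a1 in EM was the exception. Such a fit leaves 1 library in a group, and the share of all genes called also fell in each of these fits. In EM 4 of 21 were higher and 1 lower, where 5.38% of all genes were called higher and 4.41% lower. In DM 3 were higher and 3 lower, against 2.39% and 3.08% of all genes. With total-count scaling the counts were 4 and 0 in EM, beside 5.36% and 4.29% of all genes, and 4 and 3 in DM, beside 2.86% and 2.82%. DESeq2 gave 6 and 2 in EM, beside 7.70% and 7.04% of all genes with an adjusted p, and 5 and 4 in DM, beside 5.06% and 6.47%. The medians of the 21 were 0.52 in EM and 0.24 in DM, beside 0.01 and -0.01 over all genes. These comparisons share their libraries with those of the media. Clone numbers do not pair WT with KO-labelled lines. In EM Col12a1 was higher in both KO-labelled clones, at 14.7 and 23.1 against 3.30 and 4.03 CPM (5.16-fold; log2 fold change 2.37 ± 0.29, adjusted p = 0.00744), and kept its call without any 1 of the 4 libraries (adjusted p up to 0.0445). In DM Col12a1 stood at 20.9 and 30.4 against 11.2 and 11.8 CPM (1.16 ± 0.27, adjusted p = 0.0567, not called), while DESeq2 called it higher (adjusted p = 0.00372). Col7a1 was lower in KO-labelled clones in both media. In EM it had 5.35 and 4.69 against 8.83 and 7.36 CPM (-0.69 ± 0.17, adjusted p = 0.0470; lost without any 1 library, up to 0.224), and in DM 16.7 and 15.1 against 50.6 and 43.7 (-1.57 ± 0.16, adjusted p = 0.0132; lost without either KO-labelled library, up to 0.0930). All KO-labelled libraries lay below the WT libraries of their medium in this gene.

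The type VI genes Col6a1 and Col6a2 were higher in KO-labelled clones. Col6a1 (ENSMUSG00000001119, chr10:76708792-76726168, minus strand) had 111 and 16 reads in KO-labelled EM (5.61 and 0.834 CPM) and 0 in WT EM (at least 47.5-fold higher, adjusted p = 0.0283). In DM it had 229 and 116 reads (11.8 and 6.16 CPM) and 6 and 4 in WT (log2 fold change 5.11 ± 1.03, adjusted p = 0.0484). Col6a2 had 13 and 7 reads in KO-labelled EM and 0 in WT EM (at least 7.48-fold higher, adjusted p = 0.030). In DM it had 3.70 and 3.72 CPM against 2 and 6 reads in WT (log2 fold change 4.11 ± 0.68, adjusted p = 0.0317). Both KO-labelled clones had reads in each medium, with clone 1 at 5.61 CPM of Col6a1 in EM and clone 2 at 0.834. Col6a3 had at most 1 read in any clone library. The EM call of Col6a1 is lost without WT EM 1, WT EM 2 or KO-labelled EM 1 (up to 0.102), and that of Col6a2 is lost without any 1 of the 4 (up to 0.116). In DM the Col6a1 call is lost without any 1 library (up to 0.184) and that of Col6a2 without WT DM 1, KO-labelled DM 1 or KO-labelled DM 2 (up to 0.152).

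Type IV chains differed in both directions. Col4a1 was higher in KO-labelled EM, at 13.7 and 11.6 against 3.93 and 6.14 CPM (1.33 ± 0.29, adjusted p = 0.0350), a call lost without any 1 library (up to 0.153), and stood at 35.5 and 22.3 against 21.5 and 20.6 CPM in DM (0.46 ± 0.28, adjusted p = 0.362, not called). Its neighbour Col4a2 had 7 and 0 reads in KO-labelled EM and 66 and 4 in KO-labelled DM, against 49 and 95 and 430 and 290 in WT. The Col4a2 difference was not called in the main fit in EM (-4.17 ± 1.37, adjusted p = 0.105) or DM (-3.32 ± 1.12, adjusted p = 0.132). Every KO-labelled library lay below every WT library of its medium, and how many of all genes separate in this way was not counted. Per kilobase, Col4a1 stood 0.967 to 1.59 times as high as Col4a2 in WT clones, 1.63 to 1.91 times in the gland, 1.68 to 1.84 times in uncloned EM and 1.24 to 1.52 times in uncloned DM. In KO-labelled clone 1 the ratio was 34.3 in EM and 9.28 in DM, and in clone 2 it was 92.9 in DM, with no Col4a2 reads in EM. The ratio is outside the range of all other libraries in both KO-labelled clones. In DM, Col4a3 had 0.411 and 0.850 against 4.39 and 4.67 CPM (-2.84 ± 0.54, adjusted p = 0.0358) and Col4a4 2.72 and 0.691 against 14.5 and 10.7 (-2.88 ± 0.59, adjusted p = 0.0413). Each of these 2 lower calls is lost without any 1 library (up to 0.183 and 0.114), as is the higher call of Col9a3 in DM (14.5 and 18.3 against 6.41 and 6.83 CPM; 1.31 ± 0.27, adjusted p = 0.0439; up to 0.181).

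**Figure D4:**
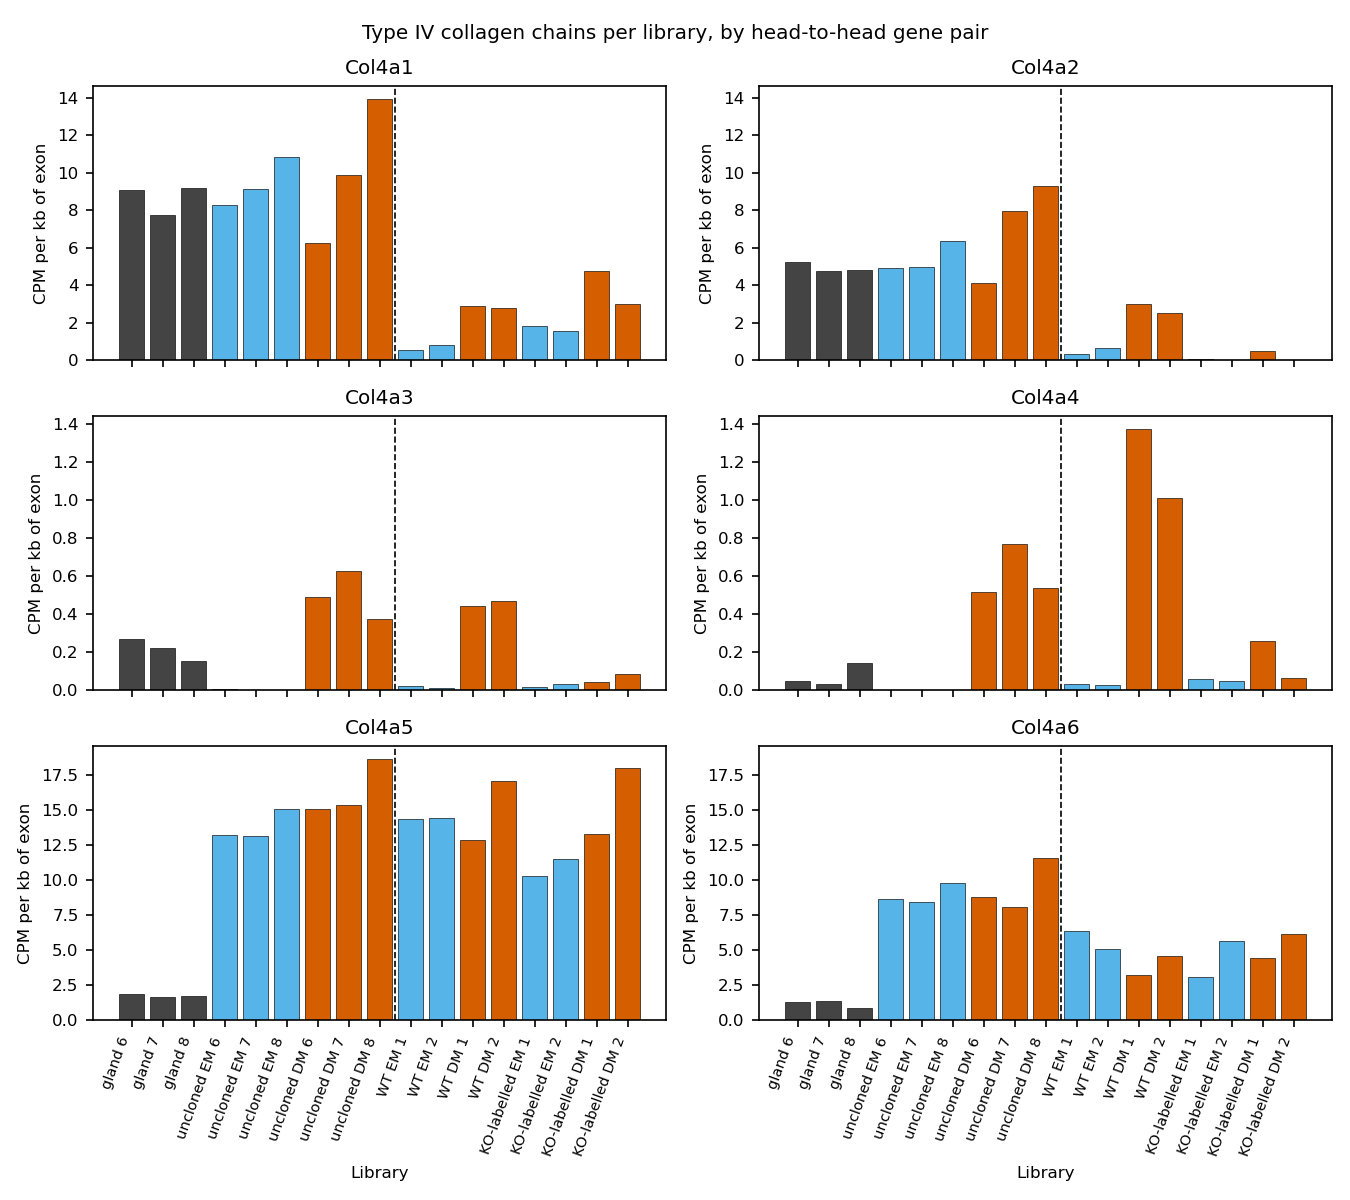
CPM per kb of exon (y axis) of the 6 type IV genes in each library (x axis), 1 bar a library, with the head-to-head partners side by side; the dashed line parts the 2 tables. Col4a5 and Col4a6 are higher in organoids than in the gland, Col4a3 and Col4a4 are highest in uncloned and WT DM, and Col4a2 is lower in each KO-labelled library than in the WT libraries of its medium, while Col4a1 is higher.

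Col17a1 had 854 and 1051 CPM in KO-labelled EM against 417 and 476 in WT (log2 fold change 1.09 ± 0.30, adjusted p = 0.0684), and 908 and 1265 against 392 and 722 in DM (0.96 ± 0.30, adjusted p = 0.114). Neither difference was called in the main fit. Both KO-labelled libraries lay above both WT libraries in each medium, and how many of all genes separate in this way was not counted. DESeq2 called Col17a1 higher in EM (adjusted p = 0.00129) and DM (adjusted p = 0.00739). EdgeR on the compared libraries alone called it in EM (adjusted p = 0.0206). Col20a1 had 3.13 and 1.20 against 7.05 and 11.0 CPM in EM (-2.05 ± 0.53, adjusted p = 0.0555) and 2.98 and 5.15 against 9.20 and 14.2 in DM (-1.52 ± 0.51, adjusted p = 0.131), not called either. DESeq2 called Col20a1 lower in EM (adjusted p = 0.00106) and DM (adjusted p = 0.0264). Col8a1 had 38.3 and 26.5 against 7.81 and 20.1 CPM in EM (1.22 ± 0.42, adjusted p = 0.121, not called), and DESeq2 called it higher there (adjusted p = 0.0123). Col4a5 stood at 69.1 and 77.2 CPM in KO-labelled EM against 96.6 and 96.9 in WT (-0.40 ± 0.18, adjusted p = 0.211), and Col18a1 at 385 and 345 against 344 and 394 (-0.02 ± 0.13, adjusted p = 0.956). Col4a6 had 50.7 and 40.6 CPM in WT EM, 26.0 and 36.7 in WT DM, 24.4 and 45 in KO-labelled EM and 35.5 and 49.2 in KO-labelled DM, with no call in the main fit. Without the low-count filter edgeR called Col4a6 lower in WT DM than WT EM (-0.55 ± 0.17, adjusted p = 0.0141). That fit also called Col16a1 higher in KO-labelled than WT EM (1.24 ± 0.35, adjusted p = 0.00495). Col16a1 had 3.30 and 3.61 CPM in WT EM, 2.01 and 9.68 in WT DM, 6.46 and 9.86 in KO-labelled EM and 4.77 and 9.88 in KO-labelled DM, and was called in none of the clone comparisons of the main fit. Col11a2 had 7.27 and 6.99, 5.31 and 3.07, 3.13 and 3.03 and 1.33 and 3.88 CPM in the same order, likewise without a call in the main fit. On the compared libraries alone it was called lower in KO-labelled than WT EM (-1.21 ± 0.24, adjusted p = 0.0391).

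**Figure D5:**
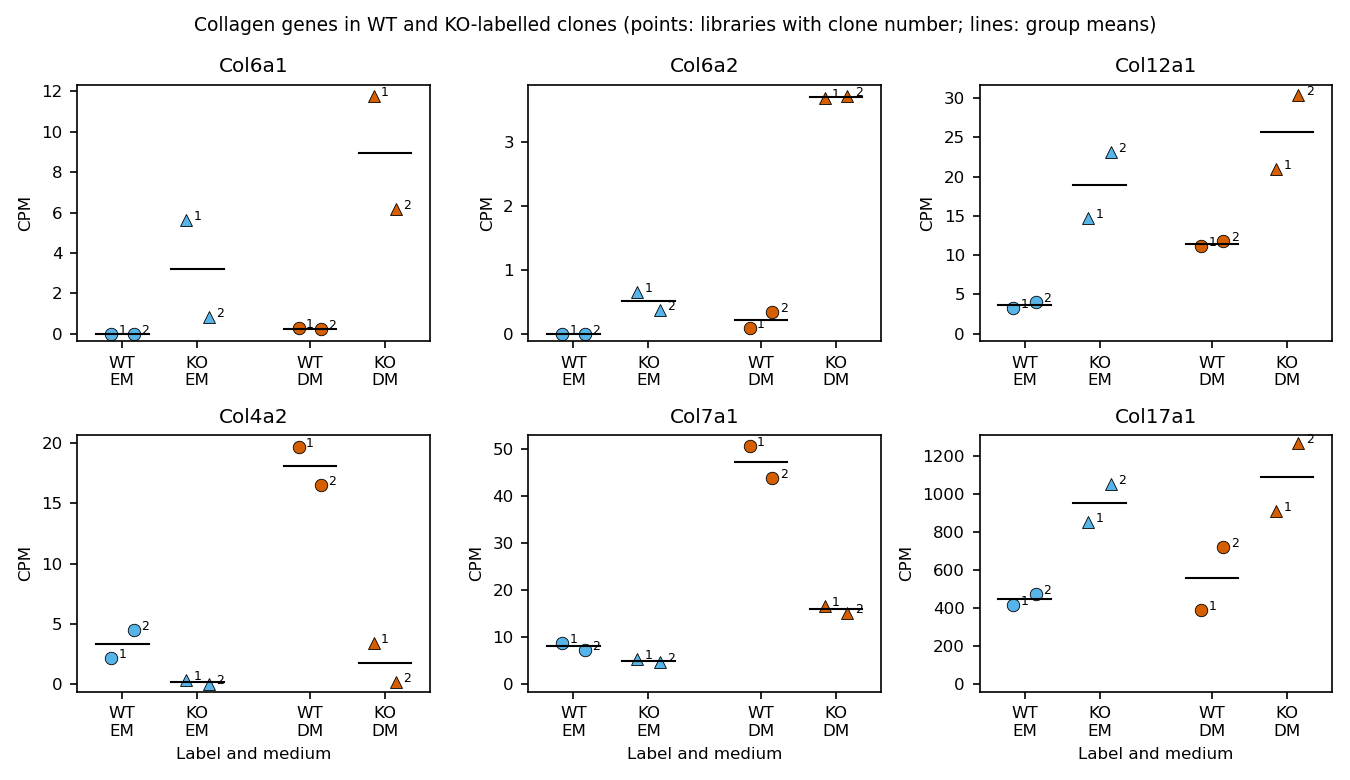
CPM (y axis) of 6 collagen genes in each clone library, with clone numbers beside the points and group means as lines, by label and medium (x axis). In each medium the KO-labelled libraries lie above the WT libraries for Col6a1, Col6a2, Col12a1 and Col17a1 and below them for Col4a2 and Col7a1.

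Whether the response to DM differed between the genotypes was tested as an interaction. No gene of the whole table was called by edgeR in the main fit (0% higher and 0% lower), while 1126 genes had an unadjusted p under 0.05, which is 7.88% of those tested, among them 4 of the 21 collagen genes. DESeq2 called 28 genes with a larger and 150 with a smaller DM change in KO-labelled clones, and Col4a4 was among the latter. With the clone as a block, edgeR called 6 and 64 genes, and no collagen gene among them. Without the low-count filter edgeR called 154 and 503 genes. Col4a6 was among the former, and Col4a3, Col4a4, Col8a1 and Col12a1 were among the latter. The edgeR values of the main fit were -3.69 ± 0.90, adjusted p = 0.362 for Col4a4, -3.36 ± 0.88, adjusted p = 0.405 for Col4a3, -0.88 ± 0.23, adjusted p = 0.40 for Col7a1 and -1.21 ± 0.39, adjusted p = 0.517 for Col12a1. The interaction is the DM change in KO-labelled clones minus that in WT clones. Marker sums in EM were 505 to 518 CPM in WT and 185 to 309 in KO-labelled clones for fibroblasts, 99.6 to 154 and 34.6 to 64.5 for macrophages and dendritic cells, and 8253 to 8282 and 7776 to 10888 for basal epithelium. In DM they were 163 to 294 and 196 to 239, 128 to 195 and 36.1 to 41.5, and 9266 to 9814 and 8312 to 11796 CPM. Of these markers, 8 of 14 for fibroblasts and 5 of 9 for macrophages and dendritic cells had 0 reads in WT EM, and as many in KO-labelled EM. Fbln1 alone had a mean of 261 CPM in WT EM and 127 in KO-labelled EM. The part of these cell types in the differences between the clones was not tested.

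The genes that make, export, crosslink, bind and cut collagen were counted from lists written from textbook knowledge. Of 18 folding and hydroxylation genes tested, 8 were higher and 6 lower in EM than in the gland, and 8 higher and 6 lower in DM, where 37.4% of all genes were higher and 37.4% lower in EM and 38.1% and 37.4% in DM. No list was tested against that share, and the shares for the other comparisons are those given with the collagen genes. The hydroxylases Plod2 (87.9 ± 9.18 against 1.46 ± 0.309 CPM, 5.93 ± 0.16, adjusted p = 1.13e-10), P4ha1 (122 ± 11.3 against 6.70 ± 0.920 CPM, 4.18 ± 0.12, adjusted p = 2.35e-10) and P4ha2 (285 ± 48.8 against 7.14 ± 1.62 CPM, 5.29 ± 0.23, adjusted p = 4.18e-09) were higher. P4hb, a subunit of prolyl hydroxylase and a general disulfide isomerase, was lower in DM than in the gland (684 ± 109 against 4265 ± 197 CPM, -2.64 ± 0.13, adjusted p = 9.72e-09). In DM against EM, 4 rose and 1 fell in uncloned organoids, among them Serpinh1, the collagen chaperone (51.0 ± 18.7 against 27.1 ± 8.76 CPM, 0.91 ± 0.28, adjusted p = 0.0302), and P3h4 (12.2 ± 1.56 against 5.14 ± 0.433 CPM, 1.24 ± 0.13, adjusted p = 7.13e-05). The Serpinh1 groups overlapped, at 17.2 to 33.8 CPM in EM and 30.4 to 67.0 in DM. Its clones lay far apart, at 0 to 49.2 CPM in KO-labelled EM and 0 to 73.3 in KO-labelled DM. WT clones had 3.70 to 17.7 CPM of Serpinh1 in EM and 7.91 to 34.9 in DM. P3h4 was the 1 of 15 that rose in WT clones (1.28 ± 0.18, adjusted p = 0.00606), and Plod2 the 1 of 15 in KO-labelled clones (1.04 ± 0.17, adjusted p = 0.0180). In EM, KO-labelled clones had 1 of 15 higher and 4 lower than WT, and in DM 3 were lower. P4ha1 was lower in both media (77.1 ± 9.31 against 189.5 ± 11.0 CPM, -1.30 ± 0.14, adjusted p = 0.00615 in EM; -1.63 ± 0.14, adjusted p = 0.00872 in DM), as was P4ha2 (-1.77 ± 0.19, adjusted p = 0.00610 in EM; -1.11 ± 0.19, adjusted p = 0.0276 in DM).

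Of 9 export and processing genes, 2 were higher and 6 lower in EM than in the gland, and 3 higher and 5 lower in DM, beside 37.4% of all genes each way in EM and 38.1% and 37.4% in DM. Mia3, which loads procollagen for export, was lower in EM (69.9 ± 1.96 against 304 ± 15.0 CPM, -2.12 ± 0.09, adjusted p = 2.64e-09). In DM against EM 4 of the 9 rose in uncloned organoids, and Bmp1, which cleaves the procollagen C-terminus, was called in all 3 kinds of organoid (51.4 ± 7.16 against 20.1 ± 1.01 CPM, 1.35 ± 0.12, adjusted p = 2.59e-05 uncloned; 0.62 ± 0.16, adjusted p = 0.0409 WT; 1.18 ± 0.16, adjusted p = 0.0107 KO-labelled). It was the 1 of 8 called in either clone comparison of media. Of 6 crosslinking genes, 3 were higher and 2 lower in EM than in the gland, 4 higher and 2 lower in DM, and 4 rose from EM to DM in uncloned organoids. Lox, a lysyl oxidase, rose in all 3 kinds of organoid (141 ± 57.4 against 8.49 ± 3.31 CPM, 4.06 ± 0.35, adjusted p = 2.20e-05 uncloned; 5.94 ± 0.87, adjusted p = 0.00692 WT; 5.04 ± 0.65, adjusted p = 0.00980 KO-labelled). Pxdn, which forms the sulfilimine crosslink of type IV collagen, did so too (219 ± 83.8 against 57.0 ± 5.75 CPM, 1.94 ± 0.23, adjusted p = 1.24e-04 uncloned; 2.42 ± 0.30, adjusted p = 0.00455 WT; 1.58 ± 0.29, adjusted p = 0.0248 KO-labelled). These were the 2 of 4 that rose in WT and in KO-labelled clones, and Loxl4 fell in KO-labelled clones (-1.89 ± 0.40, adjusted p = 0.0363). Lox was also the 1 of 4 higher in KO-labelled than WT clones (4.21 ± 0.92, adjusted p = 0.0350 in EM; 3.31 ± 0.59, adjusted p = 0.0303 in DM).

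Of 8 collagen receptors, 3 were higher and 5 lower in either medium than in the gland, and the 3 higher are close to the 37.4% and 38.1% of all genes. Itga2, the integrin chain for fibrillar collagen, rose from EM to DM in uncloned organoids (169.7 ± 76.9 against 12.6 ± 5.09 CPM, 3.76 ± 0.37, adjusted p = 4.32e-05) and WT clones (4.39 ± 0.39, adjusted p = 0.00158), and was higher in KO-labelled than WT clones in EM (2.75 ± 0.37, adjusted p = 0.00904). Its partner Itgb1 rose in uncloned organoids (0.95 ± 0.12, adjusted p = 2.65e-04) and WT clones (0.61 ± 0.16, adjusted p = 0.0399). These were the 2 of 8 and 2 of 7 receptors that rose. Itga1, the integrin chain that prefers type IV collagen, was higher in KO-labelled clones in EM (7.07 ± 1.07 against 1.33 ± 0.0179 CPM, 2.41 ± 0.33, adjusted p = 0.00966) and DM (2.25 ± 0.34, adjusted p = 0.0223). Of 7 proteases, 2 were higher and 5 lower in EM than in the gland, 3 were higher and 3 lower in DM, and 5 rose from EM to DM in uncloned organoids, as did 5 of 5 in WT clones and 1 of 5 in KO-labelled clones. Mmp14, the membrane collagenase, rose in uncloned organoids (323 ± 73.4 against 171 ± 11.3 CPM, 0.92 ± 0.14, adjusted p = 6.99e-04) and WT clones (1.11 ± 0.22, adjusted p = 0.0190). Mmp13, another collagenase, rose in uncloned organoids from 0.0797 to 2.48 CPM (adjusted p = 2.16e-04) and in WT clones from 0.0446 to 4.38 CPM (adjusted p = 0.00587). In KO-labelled clones it stood at 0 CPM in EM and at 3.39 to 4.30 in DM. Mmp2 was higher in KO-labelled clones in EM (5.48 ± 1.54 against 0.386 ± 0.148 CPM, 3.80 ± 0.55, adjusted p = 0.0109) and DM (2.41 ± 0.49, adjusted p = 0.0398), and 2 of 5 proteases were higher there in EM and 1 in DM.

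Of 13 basement membrane partners of type IV collagen, 7 were higher and 5 lower in EM than in the gland, and 9 higher and 4 lower in DM, beside 37.4% of all genes each way in EM and 38.1% and 37.4% in DM. Lama5, a laminin chain, was higher in EM (492 ± 47.2 against 12.5 ± 2.86 CPM, 5.28 ± 0.16, adjusted p = 2.35e-10). Sparc, which binds collagen, was lower (0.909 ± 0.432 against 152 ± 16.9 CPM, -7.35 ± 0.24, adjusted p = 4.34e-10) and rose from EM to DM to 22.0 ± 2.86 CPM (4.57 ± 0.23, adjusted p = 1.23e-06). In DM against EM 8 rose and 2 fell in uncloned organoids, and 3 of 11 rose in WT and 2 of 11 in KO-labelled clones. Lama3, a laminin chain, rose in all 3 kinds of organoid. Its values were 571 ± 249 against 125 ± 6.82 CPM, 2.19 ± 0.27, adjusted p = 1.86e-04 (uncloned), 1.65 ± 0.14, adjusted p = 0.00151 (WT) and 1.35 ± 0.14, adjusted p = 0.00459 (KO-labelled). Of 11 partners, 1 was higher and 1 lower in KO-labelled than WT EM, and 1 lower in DM. Lama5 was the lower one in EM (-0.67 ± 0.13, adjusted p = 0.0234) and DM (-0.76 ± 0.13, adjusted p = 0.0276).

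Overlapping annotation limits some of these values, because no source used here gives the strand setting of the counting. The exons of Col4a3 share 5.65% of their length with a gene on the opposite strand, C430014B12Rik, and those of Col9a3 share 6.07% with Tcfl5 on the opposite strand. Reads of these stretches cannot be told apart without the strand. Genes that did not pass the filter are given by reads only. In the gland and uncloned table these were 14 genes, of which Col10a1 and Col19a1 had no reads. Nothing in the labels says that lines or clones of a group came from separate mice, so the p-values measure the spread between these samples.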

How the data were processed

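Polyadenylated RNA of 3 gland libraries, 6 libraries of uncloned organoids and 8 libraries of clones was sequenced from a stranded kit, per the labels' protocols. Per the submitters' processing notes, the authors aligned reads to GRCm38 with STAR and counted them per gene with featureCounts. Versions, annotation release and strand setting are named in no source used here. Deposited values are whole-number counts per gene, not normalised, in 2 tables. Of the gene IDs, 36429 of 38293 and 55227 of 55487 matched GENCODE M21, with 0.313% and 0.00821% of counts on the others.

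Each table was fitted alone in R 4.3.3 with edgeR 4.0.16: filterByExpr, TMM scaling, a mean per group over all libraries of the table, and the quasi-likelihood test with Benjamini-Hochberg adjustment over 13713 (gland and uncloned) or 14282 (clones) genes, called under 0.05. Residual degrees of freedom were 6 and 4, and the biological coefficient of variation 0.138 and 0.234. Standard errors were taken from the fold change and the F statistic. Where a group had 0 reads, the fold is a bound against 3 reads over the group. Where it had 1 to 3 reads, it is a ratio with an exact 95% interval. Both cover counting error only.

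Values in every library were given for collagen genes with a group mean of at least 10 CPM, or called with an absolute log2 fold change of at least 1 between groups that do not overlap. The share of all genes whose groups do not overlap was not counted, so a lack of overlap is description only. Up to 4 genes with the smallest p were drawn from each machinery list. In the text, 1 gene so drawn is left out and is not reported here. A gene outside this rule is named where its class or partner is described. The collagen genes, lists and tests were chosen with earlier results of these data known. The alternatives were DESeq2 size factors, total-count scaling, no low-count filter, a block on line or clone, DESeq2 1.42.0, the compared groups' libraries alone, and each library left out in turn. The block rests on the numbers in the sample titles, which recur across the groups, and no label states that samples of a number form a block. Samples of a line deviated from their group means with correlations of 0.18, 0.12 and 0.09 in EM against DM (lines 6, 7 and 8) and of -0.07 to 0.08 in gland against organoids. For clones these were 0.60 (WT) and 0.51 (KO-labelled). The steps were tested on simulated data. Reads were not analysed here.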

Additional observations from a re-analysis of the deposited data

Results flagged for a closer look

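Col4a6, the alpha 6 chain of type IV collagen, was marked because both WT clones moved one way between the media and both KO-labelled clones the other. The mean log2 change from EM to DM, computed per clone with 0.5 CPM added, was -0.55 in WT clones (-0.95 in clone 1 and -0.15 in clone 2). It was 0.33 in KO-labelled clones (0.53 in clone 1 and 0.13 in clone 2). The difference of the changes in edgeR's quasi-likelihood test had an adjusted p of 0.743 in the main fit, so it did not pass the test there. Without the low-count filter the same test called the difference (0.84 ± 0.24, adjusted p = 0.0281), so the result depends on that setting. Groups of 2 or 3 libraries are too small for the check of single samples used on larger groups.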

How the results depend on the processing

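Under total-count scaling the log2 fold change against the gland turned positive for Col20a1 (0.15), Col9a3 (1.24) and Col16a1 (2.03) in EM and for Col14a1 (0.15) and Col16a1 (1.5) in DM. Counts of collagen genes called then became 13 higher in EM against the gland (83.8% of all genes) and 10 lower in DM against the gland (9.26%). They became 2 lower for WT DM (8.01%), 1 lower for KO-labelled DM (3.81%) and 0 lower for KO-labelled against WT in EM (4.29%). Without the low-count filter, more collagen genes were called in every clone comparison. Most of these added calls were genes already tested in the main fit, and not only low genes. For KO-labelled against WT in EM, Col17a1 had an adjusted p of 3.23e-09 in edgeR's quasi-likelihood test, against 0.0684 in the main fit. Why dropping the filter changed such genes was not tested. The fit without the filter gave 14 higher and 3 lower for WT DM against EM (7.51% and 4.94% of all genes) and 12 and 1 for KO-labelled DM against EM (5.16% and 3.99%). For KO-labelled against WT it gave 7 and 5 in EM (5.31% and 5.18%) and 5 and 7 in DM (3.82% and 5.24%). The interaction had 1 and 4 (0.548% and 1.79%). DESeq2 gave 1 lower in uncloned DM against EM (11.4% of all genes with an adjusted p), 2 lower in WT DM (7.41%), and 7 higher and 1 lower in KO-labelled DM (7.63% and 5.62%). For KO-labelled against WT it gave 2 lower in EM (7.04%) and 5 higher in DM (5.06%), and for the interaction 1 lower (1.02%). With the compared libraries alone, 9 were higher in uncloned DM against EM, beside 17.9% of all genes. Col1a1, Col5a3, Col6a1, Col15a1 and Col27a1 then did not pass the low-count filter, nor did Col4a3 and Col4a4 in EM against the gland. In WT DM 6 were higher and 1 lower (4.81% and 1.90% of all genes), with 5 of the 9 rises kept. For KO-labelled against WT in DM 1 was higher and 1 lower (0.341% and 0.474%), and the calls of Col4a3, Col4a4, Col6a2 and Col9a3 were lost. In EM those of Col6a1, Col6a2 and Col7a1 were lost, while Col11a2 and Col17a1 were called. The replicate block gave 8 higher and 1 lower in KO-labelled DM against EM (9.25% and 7.12% of all genes), called Col4a2 and Col2a1 in WT clones besides, and ended no call. No paired analysis was possible for KO-labelled against WT because their clones share only a number.

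Leaving out each library in turn gave 1 to 2 lower in uncloned DM against EM, beside 7.39% to 18.4% of all genes. Leaving out a clone library leaves 1 library in its group. Fewer collagen genes and a smaller share of all genes were then called in each clone comparison of media or genotypes. Among the fold changes of genes that were called or reached a group mean of 10 CPM, DESeq2 size factors left all 178 on their side of the threshold. The block left 135 and moved 6 past it, and also called Col2a1 in WT clones, which is outside that set. With 2 clones a group, the remaining clone is assumed to vary like the other groups. Genes under about 1 CPM rest on few reads, so a difference there was not detectable at this depth in many cases.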
